A study of Homo sapiens with 5 samples.

Results

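This account covers 43 human genes of antioxidant defence: superoxide dismutases, peroxide-removing enzymes, the thioredoxin and glutathione systems, the pentose phosphate enzymes that supply their reducing power, iron storage proteins, and the transcription factor NRF2 with its regulators. The genes were listed by function, with earlier results of these data known. Of the 43, 42 had a row in the deposited table of 16677 genes, and all 42 were among the 16310 genes tested. GPX7 had no row and is not analysed here. RNA sequencing was done on 5 libraries from HEK293 cells, a human embryonic kidney line that has long been established, with no treatment named in the labels. The 2 Control libraries came from wild-type cells. The 3 variant libraries came from cells with rs11607019 altered from T to C, a site that the series places in SIRT3. SIRT3 encodes a deacetylase of the mitochondrial matrix. The labels do not state how the change was made, how many alleles carry it, or whether libraries of a group are distinct clones or cultures, so p-values measure only the spread between these libraries, which may be technical.

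Mitochondrial respiration leaks superoxide, which superoxide dismutases turn into hydrogen peroxide. Catalase, glutathione peroxidases and peroxiredoxins remove the peroxide, and thioredoxin and glutathione return the spent enzymes to their reduced form with electrons from NADPH. The cytosol and the mitochondrial matrix each hold their own dismutase, peroxiredoxins, thioredoxin, thioredoxin reductase and glutaredoxins, encoded by separate nuclear genes. NRF2, the product of NFE2L2, drives many of these genes through the antioxidant response element, and KEAP1 holds it in check by steering it to degradation. SIRT3 is known for deacetylating SOD2 protein, a step that messenger RNA does not report.

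Library totals ran from 17122569 to 17596084 counts. SIRT3 itself stood at 28.9 and 29.3 CPM (counts relative to library size, scaled by edgeR's TMM method) in Control 1 and Control 2, and at 26.5, 15.8 and 30.2 CPM in variant 1, variant 2 and variant 3. SIRT3 was lowest in variant 2, and its log2 fold change was −0.27 (adjusted p 0.815, edgeR). All log2 fold changes are variant minus Control. Of 11 genes written down as HEK293 markers, 6 had a row, among them PAX2 at 9.94 to 21.97 CPM and VIM at 328 to 618 CPM. PAX8, NEFL, NEFM, INA and CDH2 of that list had no row. Of the 14 markers of immune, liver, fibroblast and keratinocyte cells, 1 had a row, COL1A1, at 28.4 to 46.3 CPM.

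No antioxidant gene differed between the groups at an adjusted p under 0.05, where edgeR's test also called 0 of all 16310 genes (0.0%). DESeq2's Wald test called 0 of the 42 as well, and 32 of the 14729 genes to which it gave an adjusted p (0.217%). Before adjustment, edgeR's p was under 0.05 for 5 of the 42 genes (11.9%) and for 7.62% of all tested genes. PRDX1, PRDX3, GLRX and GLRX2 were lower in the variant, a direction with p under 0.05 at 3.51% of all genes, and SRXN1 was higher, as were 4.11%. The smallest adjusted p among the 42 was 0.616. In 13 genes (31.0%) the 3 variant libraries lay wholly on one side of the 2 Control libraries, 12 of them below and SRXN1 above. Over all tested genes the groups were apart at 24.8%, with 13.0% below and 11.8% above. A negative log2 fold change was found in 29 of the 42 genes (69.0%, against 49.5% of all genes). The median log2 fold change of the 42 was −0.09, against 0.00 for all genes, and values ran from −0.68 for GLRX to 0.90 for SRXN1. That median was −0.17 without Control 1, −0.17 without variant 2 and −0.04 without variant 1, and the number of negative genes ran from 24 to 31 over the libraries left out. Without Control 1 none of the 42 had an unadjusted p under 0.05 by edgeR, and 549 of all genes did. The 95% confidence interval lay within a 2-fold difference either way in 35 of the 42. In those a change of 2-fold or more was outside the interval, while smaller differences were not resolved by 2 against 3 libraries.

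**Figure D1:**
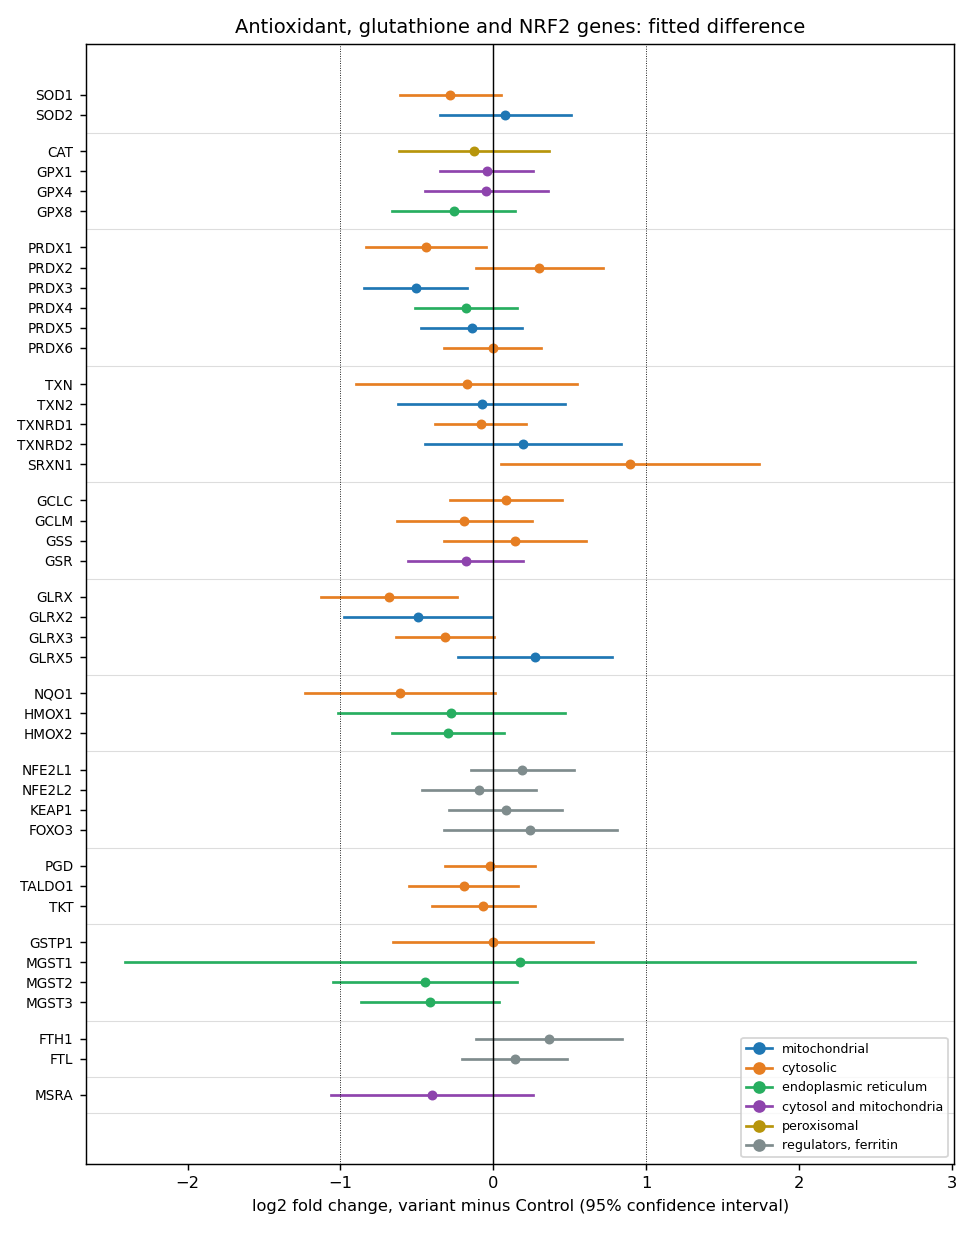
Fitted log2 fold change of each gene, variant minus Control, with its 95% confidence interval from edgeR's quasi-likelihood fit (2 Control and 3 variant libraries). Genes are grouped by role, colours give the place of the protein in the cell, and dotted lines mark a 2-fold difference. Intervals of PRDX1, PRDX3, GLRX and GLRX2 lie below 0, that of SRXN1 lies above 0, and none of these 5 passed adjustment over all genes.

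The regulators of the pathway had overlapping groups throughout. NFE2L2 (GRCh38, as for all positions given, chromosome 2, 177227595 to 177392697), which encodes NRF2, stood at 63.01 and 72.9 CPM in the Control libraries and at 58.5, 70.95 and 61.7 CPM in the variant libraries. Both groups covered much the same range, and the log2 fold change was −0.09 (95% confidence interval −0.47 to 0.28). KEAP1 (chromosome 19, 10486120 to 10503741), the adaptor that marks NRF2 for degradation, stood at 100.9 and 116.7 CPM in Control and at 99.5, 124.0 and 121.5 CPM in the variant. Here variant 1 lay below both Control libraries and the other two lay above them, for a log2 fold change of 0.08 (interval −0.29 to 0.45). NFE2L1, a relative of NRF2 that is known for controlling proteasome genes, stood at 307 and 375 CPM in Control and at 419, 351 and 397 CPM in the variant. Its log2 fold change was 0.19 (interval −0.15 to 0.53), or 0.05 without Control 1. FOXO3, a stress-responsive transcription factor known to act on SOD2 and catalase, stood at 46.4 and 37.3 CPM in Control and at 62.01, 52.6 and 33.7 CPM in the variant. The variant libraries spanned more than the Control libraries did, and the log2 fold change was 0.24 (interval −0.33 to 0.81), or 0.05 without variant 1.

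The element that NRF2 binds was looked for in the genes' promoters, to show which of them carry it near their start. RefSeq promoter windows on GRCh38.p14, from 250 bases before to 50 bases after each start site, were at hand for 32 of the 43 genes. The core TGACNNNGC, searched on both strands, was in a window of 7 of the 32 (21.9%) and of 16.1% of all 27305 genes with windows. The narrower form TGACNNAGC was in 5 of the 32 (15.6%) and in 4.7% of all genes. These 5 were GSTP1, GCLM, KEAP1, TXNRD1 and MGST1. The stretches around 4 of these sites are shown, up to the start site at most, because they are the members whose promoters hold the narrower form upstream of the start. They are written 5′ to 3′ on the gene's strand, with the match in capitals. In GCLM, KEAP1 and TXNRD1 the match is on the opposite strand, so the capitals read as the reverse complement.
GSTP1 (chr11:67583706-67583794, forward strand): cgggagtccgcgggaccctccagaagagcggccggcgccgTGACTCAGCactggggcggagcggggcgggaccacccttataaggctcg
GCLM (chr1:93909431-93909504, reverse strand): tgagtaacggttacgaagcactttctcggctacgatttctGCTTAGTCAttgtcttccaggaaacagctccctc
KEAP1 (chr19:10502772-10502842, reverse strand): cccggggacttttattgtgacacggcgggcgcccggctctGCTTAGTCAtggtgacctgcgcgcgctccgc
TXNRD1 (chr12:104286890-104286978, forward strand): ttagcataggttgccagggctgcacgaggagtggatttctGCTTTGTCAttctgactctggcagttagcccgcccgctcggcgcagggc
TXNRD1 has more than one start site, and the stretch shown belongs to the downstream one. A match describes letters in a window and not binding. The 7 genes with the core had log2 fold changes between −0.19 and 0.24, with a median of 0.00, and 0 of the 7 had an unadjusted p under 0.05. The 24 tested genes whose windows lacked it had a median of −0.11.

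Of the classical NRF2 targets NQO1, GCLC, GCLM, TXNRD1 and HMOX1, only GCLC had a positive log2 fold change, and none passed adjustment. These are only part of the NRF2 targets, and others went the other way. SRXN1, with the largest positive value of the 42 at 0.90, is described further on. So are the ferritin genes FTH1 (0.36) and FTL (0.14). Among 32 tested NRF2 targets outside the 43, 20 had a positive value and 12 a negative one. NQO1 (chromosome 16, 69706996 to 69726951), a quinone reductase often used as the readout of NRF2 activity, stood at 11.2 and 13.8 CPM in Control and at 6.82, 6.95 and 10.8 CPM in the variant. Variant 3 lay just under Control 1, and the other 2 variant libraries lay well below. NQO1 had a log2 fold change of −0.61 (SE 0.28), with p at 0.0539 before and 0.657 after adjustment (edgeR). GCLC and GCLM, the catalytic and modifier subunits of the enzyme that starts glutathione synthesis, had log2 fold changes of 0.08 and −0.19. TXNRD1, the cytosolic thioredoxin reductase, had the smallest SD of log2 CPM among the 42, at 193 and 186 CPM in Control and at 174, 178 and 185 CPM in the variant. Its groups did not overlap, yet its log2 fold change was only −0.08 (interval −0.38 to 0.22). HMOX1 (chromosome 22, 35380361 to 35394214), the inducible heme oxygenase, stood at 53.8 and 47.3 CPM in Control and at 21.7, 49.2 and 54.4 CPM in the variant. Variant 1 was low at HMOX1 and the other 4 libraries were close together. Its log2 fold change of −0.28 became 0.04 without variant 1. HMOX2, the constitutive form, had 63.01 and 69.2 CPM in Control and 47.9, 57.5 and 56.3 CPM in the variant, which was lower in all 3 libraries (log2 fold change −0.29, SE 0.16, adjusted p 0.691 by edgeR).

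**Figure D2:**
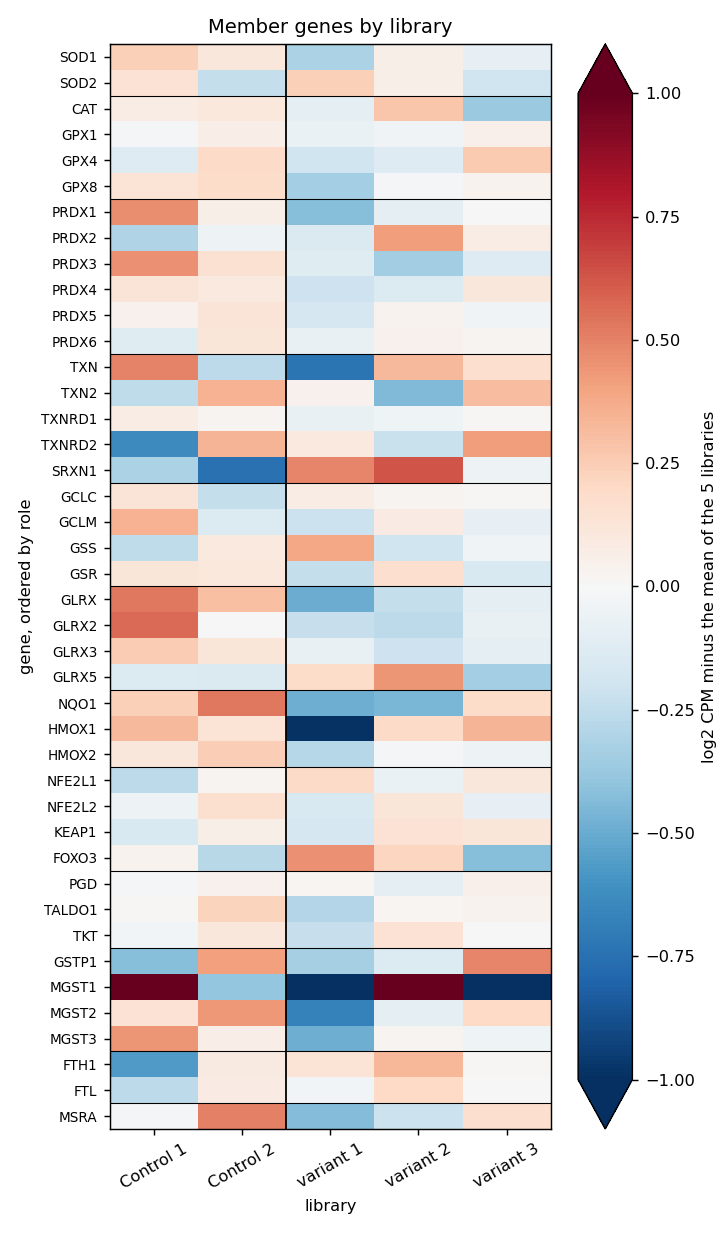
Level of each gene in each library as log2 CPM minus the mean of the 5 libraries, with genes in rows ordered by role and the 2 Control libraries left of the vertical line. Colours end at 1 either way. Variant 1 is the lowest library for 22 of the 42 genes, a share that was not counted over all genes. MGST1 passes the ends of the scale in 4 libraries.

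Superoxide dismutases showed no shared direction. SOD1 (chromosome 21, 31659622 to 31668931), the copper-zinc enzyme of the cytosol, stood at 547 and 501 CPM in Control and at 373, 483 and 438 CPM in the variant. All 3 variant libraries were below both Control libraries, with a mean of 524 ± 32.2 CPM in Control (SD, n = 2) and 431 ± 55.5 CPM in the variant (SD, n = 3). This gave SOD1 a log2 fold change of −0.28 (SE 0.15, interval −0.61 to 0.05, adjusted p 0.679, edgeR). SOD2 (chromosome 6, 159669057 to 159745186), the manganese enzyme of the matrix, stood at 77.1 and 59.03 CPM in Control and at 82.4, 72.5 and 60.9 CPM in the variant. The groups of SOD2 overlapped, with variant 1 the highest library and Control 2 the lowest, and its log2 fold change was 0.08 (interval −0.35 to 0.51).

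Catalase and the tested genes of the glutathione peroxidase family (GPX1, GPX4 and GPX8) all had a negative log2 fold change. None of these 4 genes had an unadjusted p under 0.05. Catalase (CAT), the peroxisomal enzyme, had 27.9 and 28.4 CPM in Control and 24.8, 31.97 and 20.4 CPM in the variant, on both sides of Control. GPX1, the main soluble glutathione peroxidase, stood between 172 and 190 CPM in all 5 libraries (log2 fold change −0.04, interval −0.35 to 0.26). GPX4, which reduces lipid peroxides in membranes, had 234 and 292 CPM in Control and 223, 234 and 307 CPM in the variant. GPX8, a peroxidase of the endoplasmic reticulum, had 42.3 and 43.9 CPM in Control and 30.4, 38.1 and 39.4 CPM in the variant. The variant was below Control in all 3 libraries for GPX8, with a log2 fold change of −0.26 (SE 0.18, interval −0.66 to 0.14), or −0.15 without variant 1.

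Peroxiredoxins, the thiol peroxidases that take most cellular hydrogen peroxide, held 2 of the 5 genes with an unadjusted p under 0.05. PRDX3 (chromosome 10, 119167703 to 119178833), the peroxiredoxin of the mitochondrial matrix, stood at 409 and 331 CPM in Control and at 274, 234 and 273 CPM in the variant. Every variant library was below both Control libraries at PRDX3, and the group means were 370.1 ± 54.9 CPM (SD, n = 2) and 260.3 ± 22.7 CPM (SD, n = 3). PRDX3 had a log2 fold change of −0.51 (SE 0.15, interval −0.85 to −0.17), with p at 0.00759 before and 0.616 after adjustment (edgeR). Over the 10 alternative fits it was negative, from −0.65 to −0.35, and its adjusted p ran from 0.304 to 0.998. Correction for the GC content and length of transcripts gave −0.38.

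PRDX1 (chromosome 1, 45511036 to 45523047), an abundant cytosolic peroxiredoxin, stood at 603 and 456 CPM in Control and at 326, 409 and 438 CPM in the variant. Variant 3 was close to Control 2, while Control 1 stood far above all others. PRDX1 had a log2 fold change of −0.44 (SE 0.17), with p at 0.0323 before and 0.627 after adjustment (edgeR), and −0.22 without Control 1. Exons of PRDX1 overlap those of MMACHC on the opposite strand over 379 bases, and the strand setting of the counting is not given, so some reads may be shared. PRDX2, its cytosolic relative, was higher on average in the variant, with 236 and 280 CPM in Control and 262, 388 and 305 CPM in the variant (log2 fold change 0.30, SE 0.18, adjusted p 0.706 by edgeR). The groups of PRDX2 overlapped, and without variant 2 the value was 0.13. PRDX5, which is sent to mitochondria, peroxisomes and cytosol, had 109.9 and 116.3 CPM in Control and 94.8, 109.01 and 103.8 CPM in the variant. PRDX4, the form of the endoplasmic reticulum, and PRDX6, a cytosolic form that uses glutathione, had log2 fold changes of −0.18 and −0.01.

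**Figure D3:**
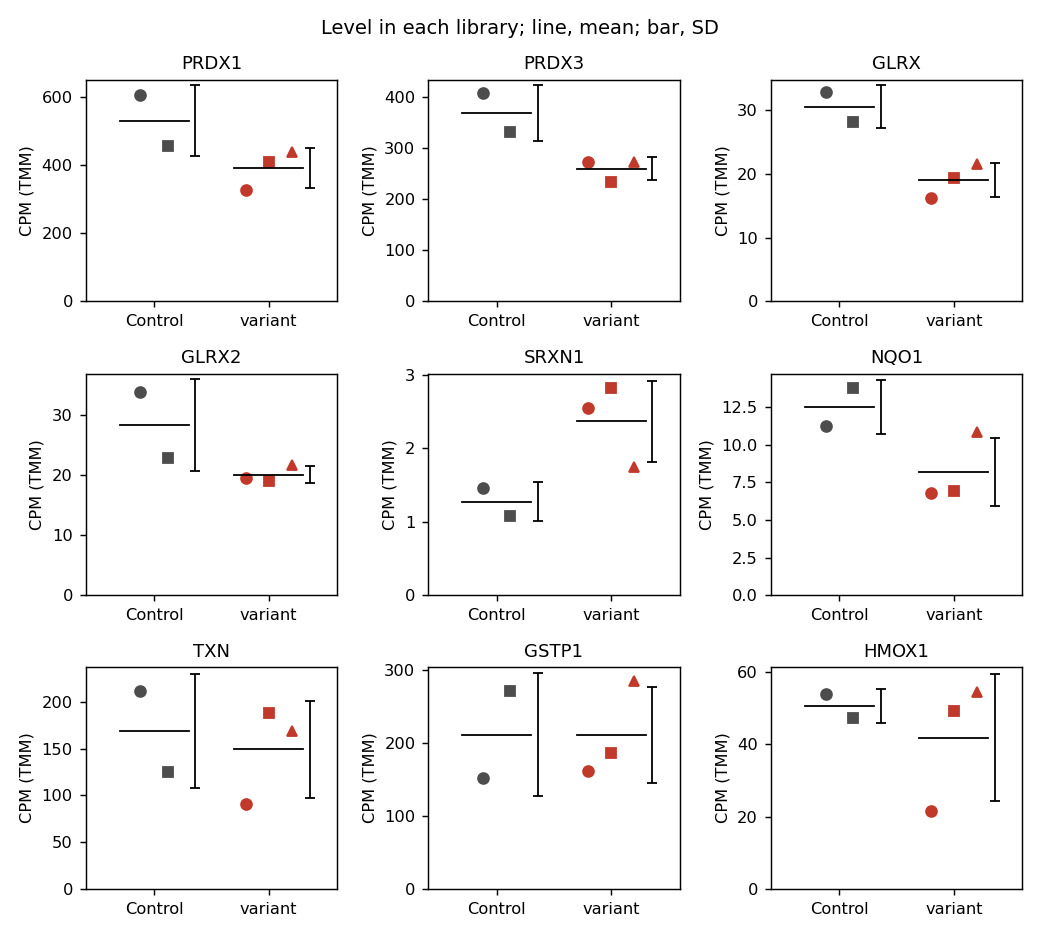
TMM-scaled CPM in each library for 9 genes, with Control in grey and variant in red. Circles, squares and triangles are replicates 1, 2 and 3 of a group, horizontal lines are group means and bars beside them are SDs. The variant points lie below both Control points for PRDX1, PRDX3, GLRX, GLRX2 and NQO1 and above them for SRXN1, whereas the groups overlap for TXN, GSTP1 and HMOX1.

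TXN, TXN2 and TXNRD2 varied widely within groups, unlike TXNRD1 above. TXN (chromosome 9, 110243811 to 110256640), the cytosolic thioredoxin, stood at 212 and 125 CPM in Control and at 90.7, 188 and 169 CPM in the variant. The Control libraries alone differed by more than the group means did, and the log2 fold change was −0.18 (interval −0.90 to 0.55). It was 0.25 without Control 1 and 0.09 after correction for GC content and length. Relative to the median of chromosome 9, which was 0.35, TXN stood at −0.53, and the part of that chromosome was not tested. TXN2 (chromosome 22, 36467036 to 36482030), the mitochondrial thioredoxin, had 98.97 and 151 CPM in Control and 121.8, 87.2 and 146 CPM in the variant. TXNRD2 (chromosome 22, 19875517 to 19941992), its reductase, had 40.3 and 79.04 CPM in Control and 67.2, 53.6 and 83.8 CPM in the variant. Both mitochondrial genes were thus lowest in Control 1 and variant 2 and higher in Control 2, variant 1 and variant 3. The median over 275 expressed genes of chromosome 22, as a deviation from the 5-library mean, was −0.27 and 0.18 in the Control libraries and 0.11, −0.23 and 0.21 in the variant libraries, in the same order. The part of the chromosome in these values was not tested. SRXN1 (chromosome 20, 646615 to 653370), the sulfiredoxin that repairs overoxidised peroxiredoxins, had few reads. It had 25 and 19 counts in Control and 44, 49 and 31 in the variant, which is 1.27 ± 0.264 CPM (SD, n = 2) and 2.37 ± 0.552 CPM (SD, n = 3). All 3 variant libraries were above both Control libraries at SRXN1. A log2 fold change of 0.90 (SE 0.38, interval 0.05 to 1.74) went with p at 0.0395 before and 0.637 after adjustment (edgeR).

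Genes of glutathione synthesis and recycling had overlapping groups. GCLC stood between 79.6 and 102.9 CPM and GCLM between 34.9 and 51.5 CPM over the 5 libraries, with Control 1 the highest library for both. GSS, which adds glycine to complete glutathione, had 65.6 and 83.4 CPM in Control and 102.2, 68.1 and 76.4 CPM in the variant. GSR, the reductase that regenerates glutathione, had 116.1 and 115.2 CPM in Control and 90.3, 119.9 and 95.96 CPM in the variant. None of the 4 had an unadjusted p under 0.05, and the median log2 fold change was −0.05.

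Glutaredoxins, which use glutathione to reduce protein thiols or to carry iron-sulfur clusters, were the role with the largest median difference in the negative direction among roles of more than 1 gene, at −0.41 over 4 genes. GLRX (chromosome 5, 95751319 to 95823005), the cytosolic dithiol form, stood at 32.9 and 28.1 CPM in Control and at 16.2, 19.3 and 21.5 CPM in the variant. The variant libraries were all below Control, with means of 30.5 ± 3.36 CPM in Control (SD, n = 2) and 19.02 ± 2.68 CPM in the variant (SD, n = 3). GLRX had the lowest p of the 42, at 0.00687 before and 0.616 after adjustment (edgeR), with a log2 fold change of −0.68 (SE 0.20, interval −1.13 to −0.24). Over the 10 alternative fits its log2 fold change stayed between −0.79 and −0.56 and its adjusted p between 0.219 and 0.998, so it passed in none. Correction for GC content and length gave −0.65.

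GLRX2 (chromosome 1, 193090866 to 193106114), the mitochondrial dithiol form, stood at 33.7 and 22.8 CPM in Control and at 19.4, 19.001 and 21.7 CPM in the variant. Control 1 was far above the rest at GLRX2, and Control 2 was only just above variant 3. For GLRX2 the log2 fold change of −0.50 (SE 0.21, adjusted p 0.643, edgeR) was −0.19 without Control 1 and −0.26 after correction for GC content and length. Its exons overlap those of TROVE2 on the opposite strand over 481 bases. GLRX3, a cytosolic monothiol form, had 143.7 and 131.3 CPM in Control and 114.4, 104.1 and 113.1 CPM in the variant, all below Control (log2 fold change −0.31, SE 0.14, p 0.0544 before and 0.657 after adjustment, edgeR). GLRX5 (chromosome 14, 95533503 to 95544724), the mitochondrial monothiol form needed for iron-sulfur cluster assembly, had 53.1 and 52.8 CPM in Control and 66.4, 79.2 and 46.1 CPM in the variant. Variant 1 and variant 2 were above Control at GLRX5 and variant 3 was below. The log2 fold change of 0.27 was 0.09 without variant 2, and −0.04 relative to the median of chromosome 14. The median over 364 expressed genes of chromosome 14 was also above the 5-library mean in variant 1 and variant 2, by 0.30 and 0.28, and was −0.25 in variant 3 and −0.16 and −0.18 in Control 1 and Control 2. Exons of GLRX5 overlap those of SNHG10 on the opposite strand over 391 bases.

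Enzymes of the pentose phosphate pathway, which generate NADPH and rearrange sugars, were steady. PGD, the NADPH-producing dehydrogenase of 6-phosphogluconate, stood between 326 and 360.2 CPM in the 5 libraries (log2 fold change −0.02, interval −0.31 to 0.27). TKT had 380 and 420.3 CPM in Control and 331, 428 and 387 CPM in the variant, and TALDO1 had 169 and 196 CPM in Control and 137, 169.8 and 172 CPM in the variant. Variant 1 was the lowest library for both transketolase and transaldolase.

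The glutathione transferases included MGST1, which varied most between libraries. GSTP1 (chromosome 11, 67583595 to 67586656), which conjugates glutathione to electrophiles, stood at 152 and 271 CPM in Control and at 162, 186 and 286 CPM in the variant. Control 2 and variant 3 were high and the other 3 libraries low, and the group means were 211 ± 84.02 CPM (SD, n = 2) and 211 ± 65.6 CPM (SD, n = 3). GSTP1 had a log2 fold change of 0.00 (interval −0.65 to 0.65). MGST1, a membrane-bound form, ranged over 11.96-fold, with 78 and 29 counts in Control and 17, 153 and 13 in the variant. Its log2 fold change of 0.18 had an interval from −2.41 to 2.76 and became −1.84 without variant 2. MGST2 had 16.8 and 20.6 CPM in Control and 9.54, 14.2 and 17.5 CPM in the variant, and MGST3 had 81.7 and 62.96 CPM in Control and 43.1, 61.4 and 58.5 CPM in the variant. Their log2 fold changes were −0.45 and −0.41, with 0.703 and 0.659 as adjusted p (edgeR). They were −0.24 for MGST2 without variant 1 and −0.21 for MGST3 without Control 1. MSRA, which repairs oxidised methionine, had 6.24 and 8.95 CPM in Control and 4.68, 5.45 and 7.12 CPM in the variant (log2 fold change −0.40, SE 0.29), and the value was −0.12 without Control 2.

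Ferritin genes, whose products store iron and so limit radical chemistry, both had a positive log2 fold change, with overlapping groups. FTH1 (chromosome 11, 61959718 to 61967660), the heavy chain, stood at 59.2 and 93.5 CPM in Control and at 96.2, 110.3 and 88.3 CPM in the variant. Control 1 was the low library at FTH1, and the other 4 were close together. Its log2 fold change of 0.36 (SE 0.21, adjusted p 0.700 by edgeR) was 0.07 without Control 1. FTL, the light chain, had 395 and 500 CPM in Control and 463, 542 and 474 CPM in the variant (log2 fold change 0.14, SE 0.15), and without Control 1 the value was −0.02. Reads of 50 bases can match ferritin genes and their processed pseudogenes alike, so both levels are uncertain. GENCODE release 29 lists 25 pseudogenes of FTH1, of which 9 had rows in the table, and their counts summed to between 8.71% and 15.6% of those of FTH1 itself, with the highest share in Control 1. FTH1 also shares 1267 bases of exon with BEST1 on the opposite strand. Shorter overlaps of this kind, from 54 to 298 bases, involve SOD2, TXNRD2, HMOX2, NFE2L2 and MGST2. Exons of NFE2L2 also overlap those of AC019080.1 on the same strand, so its counts may be affected whatever the strand setting.

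Mitochondrial enzymes were then compared with cytosolic enzymes. The 7 mitochondrial members (SOD2, PRDX3, PRDX5, TXN2, TXNRD2, GLRX2 and GLRX5) had −0.08 as their median log2 fold change, and 4 of the 7 were negative. The 17 cytosolic members also had a median of −0.08, with 13 of the 17 negative, so the medians differed by 0.01 on the log2 scale. This difference depended on which enzymes were counted. It was 0.0845 without PRDX5, which is not solely mitochondrial, and 0.15 with the cytosolic set limited to families that have a mitochondrial form. Relative to the medians of their chromosomes, the mitochondrial median was −0.14 and the cytosolic one −0.05, with 6 of the 7 and 12 of the 17 negative. The SD within groups of the difference was 0.21. Within libraries the mitochondrial median minus the cytosolic median, each as a deviation from the 5-library mean, was −0.03 and 0.03 in Control 1 and 2, and 0.26, −0.24 and −0.08 in variant 1, 2 and 3. The variant libraries thus lay on both sides of Control. In variant 1 the cytosolic enzymes were low (median −0.22) and the mitochondrial ones near the mean (0.04), and in variant 2 the mitochondrial enzymes were low (−0.22) and the cytosolic ones near the mean (0.02). Without variant 2 the difference between the group medians was 0.23. For the 7 tested enzymes of the endoplasmic reticulum the median was −0.28, and 6 of the 7 were negative. The 4 enzymes listed as shared by cytosol and mitochondria (GPX1, GPX4, GSR and MSRA) had −0.11, with all 4 negative.

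**Figure D4:**
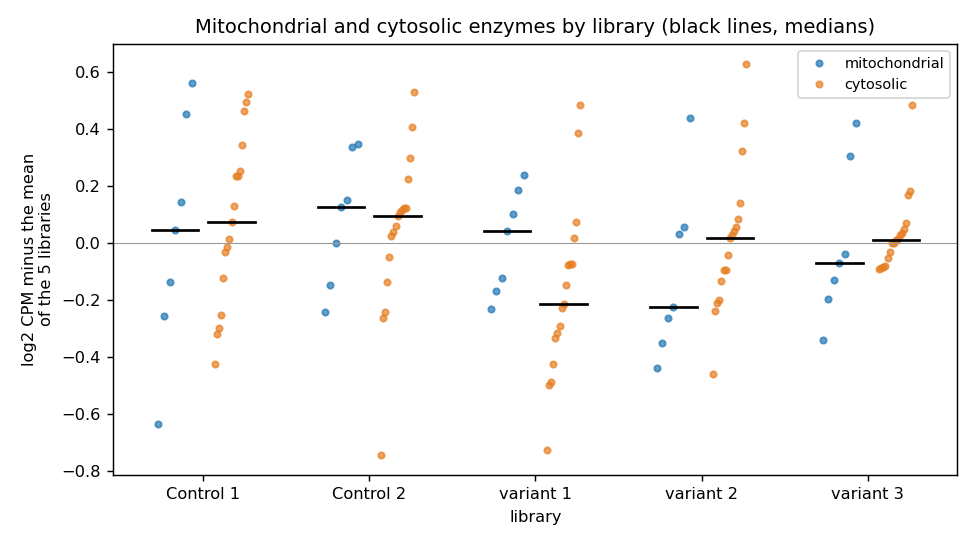
Deviation of log2 CPM from the mean of the 5 libraries for the 7 mitochondrial (blue) and 17 cytosolic (orange) enzymes in each library, with black lines at the medians. The medians lie within 0.03 of each other in the Control libraries, the cytosolic median is lower in variant 1 by 0.26, and the mitochondrial median is lower in variant 2 by 0.24.

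The same question was put to 6 pairs of one enzyme family, a mitochondrial form over its cytosolic counterpart, where scaling between libraries cancels. With 2 against 3 libraries an exact two-sided permutation test cannot go below 0.1, so the ratios are given as a description. The SOD2 to SOD1 ratio of CPM was 0.141 and 0.118 in Control and 0.221, 0.150 and 0.139 in the variant, where variant 1 stood apart. The PRDX3 to PRDX1 ratio was 0.678 and 0.727 in Control and 0.841, 0.572 and 0.623 in the variant. Although both genes had lower means in the variant, their ratio overlapped between the groups. For TXN2 to TXN the ratio was 0.467 and 1.20 in Control and 1.34, 0.463 and 0.866 in the variant, a wide spread within each group. For TXNRD2 to TXNRD1 it was 0.2095 and 0.424 in Control and 0.386, 0.301 and 0.454 in the variant, with Control 1 alone at the low end. GLRX2 to GLRX gave 1.02 and 0.811 in Control and 1.20, 0.982 and 1.01 in the variant. GLRX5 to GLRX3 was the pair whose groups did not overlap, at 0.3696 and 0.402 in Control and 0.581, 0.7602 and 0.408 in the variant, and variant 3 exceeded Control 2 only narrowly. The mean log2 ratio of that pair differed by 0.55 between the groups, with SDs of 0.08 in Control and 0.45 in the variant. Taken singly, 24.8% of all tested genes had groups that did not overlap. GLRX5 is on chromosome 14 and GLRX3 on chromosome 10, whose median log2 fold changes were 0.31 and −0.08. The part of the chromosomes in this ratio was not tested. Over the 6 pairs the difference in mean log2 ratio was positive in 5 and negative in 1, with a median of 0.27. Without Control 1 it was positive in 3, with a median of 0.13, since TXN2 to TXN became −0.56 and TXNRD2 to TXNRD1 became −0.18. The median was 0.14 without variant 1 and 0.43 without Control 2. Scaling cancels in these ratios, but effects of GC content need not. With offsets for GC content and length the difference was positive in 4 of the 6 pairs, with a median of 0.25. TXN2 to TXN then stood at −0.12 and TXNRD2 to TXNRD1 at 0.18, against 0.12 and 0.33 in the main fit.

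**Figure D5:**
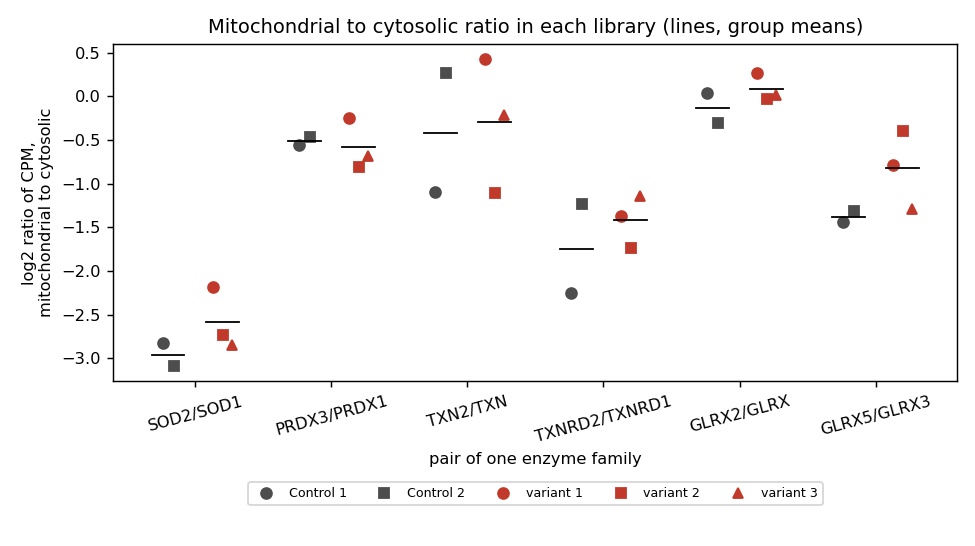
Log2 ratio of CPM of a mitochondrial enzyme to its cytosolic counterpart in each library, for 6 pairs, with Control in grey, variant in red and lines at the group means. The groups overlap in 5 of the 6 pairs and are apart for GLRX5/GLRX3.

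Other genes of these pathways were read from a list of 108 symbols that are not among the 43, of which 90 were tested. In edgeR's test 0 of the 90 had an adjusted p under 0.05, and 13 had an unadjusted p under 0.05 (14.4%, against 7.62% of all genes), 7 lower and 6 higher in the variant. Their median log2 fold change was −0.04. DESeq2's Wald test called 2 of them, SECISBP2 and SELENOP. SECISBP2, which encodes the protein that lets ribosomes read the selenocysteine codon of glutathione peroxidases and thioredoxin reductases, had 40.3 and 36.8 CPM in Control and 63.5, 83.6 and 67.9 CPM in the variant. The groups of SECISBP2 were well apart, at a log2 fold change of 0.89 (SE 0.18), and the adjusted p was 0.579 by edgeR and 0.00939 by DESeq2. SECISBP2 is on chromosome 9, whose 662 tested genes had a median log2 fold change of 0.35, and the part of the chromosome was not tested. SELENOP, a secreted selenium carrier, had 28.6 and 22.5 CPM in Control and 14.04, 13.03 and 8.02 CPM in the variant. All 3 variant libraries of SELENOP were below Control, at a log2 fold change of −1.13 (SE 0.26), and the adjusted p was 0.616 by edgeR and 0.0486 by DESeq2.

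Of 41 NRF2 targets listed outside the 43, 32 were tested. AKR1C1, AKR1C2, AKR1C3, AKR1B10, CBR1, CBR3, ABCC3, GSTM3 and GSTM4 had no row, so the shares leave them out. Among the 32, 4 had an unadjusted p under 0.05 (12.5%), and 12 were lower in the variant (37.5%). Over all tested genes these shares were 7.62% and 49.5% (edgeR). SLC7A11, the cystine importer that feeds glutathione synthesis, had 42.8 and 30.97 CPM in Control and 18.2, 29.6 and 18.4 CPM in the variant (log2 fold change −0.74, SE 0.26, adjusted p 0.616 by edgeR). PSAT1, an enzyme of serine synthesis on chromosome 9, had 165 and 154 CPM in Control and 193, 237 and 246 CPM in the variant, with a log2 fold change of 0.50 (SE 0.16). The variant libraries were below Control for SLC7A11 and above Control for PSAT1. Of 18 tested genes of glutathione turnover, 3 had an unadjusted p under 0.05 (16.7%, against the same 7.62%). Among them was CNDP2, a dipeptidase, with a log2 fold change of 0.53 (SE 0.18). Of 8 genes of NRF2 degradation there was 1 (12.5%), RBX1, a subunit of the ubiquitin ligase that works with KEAP1, at −0.47 (SE 0.18). Of 23 thioredoxin-like, sestrin and selenoprotein genes there were 5 (21.7%), among them TXNDC9 at −0.70 (SE 0.21) and TXNDC5 at 0.62 (SE 0.23). Of 9 genes of mitochondrial NADPH and peroxide handling there were 0.

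The spread between libraries was then set beside that of other genes. The SD of log2 CPM over the 5 libraries had a median of 0.23 in the 42 genes and of 0.21 in the 10835 expressed genes (mean log2 CPM over 3). The highest and lowest library differed by more than 2-fold in 8 of the 42 (19.0%, against 9.27% of those 10835 genes). The 42 were not cut at that level of expression, so the shares are not on like terms. SRXN1 and MGST1, both among the 8, lie below the cut. Variant 1 was the lowest library for 22 of the 42 genes and had a median deviation of −0.17, against 0.06 and 0.10 in Control 1 and 2 and 0.02 and 0.01 in variant 2 and 3. Over all tested genes the median deviation of variant 1 was −0.00138. The share of all genes with variant 1 lowest was not counted, so the 22 cannot be set against it. Levels also moved with the GC content of transcripts. Over the 42 genes, which share their libraries and are not independent, the Spearman correlation of GC content with a library's deviation was −0.64 and 0.30 in Control 1 and 2, and 0.17, −0.01 and 0.51 in variant 1, 2 and 3. Over the expressed genes of the whole table it was −0.53, 0.07, −0.12, 0.24 and 0.47 in the same order. After correction for GC content and length the count with an unadjusted p under 0.05 was 3 of the 42 in place of 5, and 1034 over all genes in place of 1243. PRDX3 and GLRX remained, HMOX2 joined them at −0.32, and all 3 had 0.763 as adjusted p (edgeR). Of the others, PRDX1 stood at −0.37 and SRXN1 at 0.85, close to their uncorrected values, and GLRX2 at −0.26. RNA was measured in bulk, so fewer cells with a transcript and less of it per cell cannot be told apart.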

How the data were processed

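Per the labels' protocols, RNA was extracted with TRIzol and strand-specific mRNA libraries were read as single ends of 50 bases on DNBSEQ. The submitters' processing notes name HISAT2, SAMtools, HTSeq and the build hg38. The annotation, any filter on genes and the strand setting of the counting are not given in the sources used here. The deposited values are raw read counts per Ensembl gene, whole numbers from 3 upward. Symbols came from the gene name table for 16627 genes and from GENCODE release 29 (GRCh38) for 46; positions are from that release.

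Low-count genes were dropped by filterByExpr. The groups were compared in edgeR 4.0.16 (R 4.3.3) by its quasi-likelihood test, with TMM scaling, all 5 libraries and no covariate. P-values are two-sided, with Benjamini-Hochberg adjustment over 16310 genes and a threshold of 0.05. SEs and intervals come from the same fit. The script was tested on simulated data. Alternatives were the size factors and Wald test of DESeq2 1.42.0, no filter, a block for the replicate number, each library left out in turn, offsets for GC content and transcript length, other compartment lists and chromosome medians. Genes and lists were chosen with earlier results of these data known. Values in every library are given for genes with an unadjusted p under 0.05, the family pairs, the 3 largest differences, the regulators and the most counted gene of each role, with those of further members added after their values were seen. Of the 108 pathway genes, 90 were tested, and of those at most the 8 with the smallest p are named.

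The labels do not state whether replicate numbers pair the libraries. Correlations of deviations from the group means were 0.15 for the libraries numbered 1 and −0.21 for those numbered 2. The deviations of 2 Control libraries from their mean are mirror images, so these correlations cannot decide whether the libraries are paired.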

Additional observations from a re-analysis of the deposited data

How the results depend on the processing

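No antioxidant gene had an adjusted p under 0.05 in any alternative. DESeq2's Wald test called 32 genes in all and 2 of the pathway genes. The replicate number was also used as a block, though the labels do not tie it to a shared culture or day. With that block 9 of the 42 genes and 1557 of all genes had an unadjusted p under 0.05 (edgeR). The log2 fold change of CAT changed sign there, to 0.00214, with an adjusted p of 0.998 (edgeR). With offsets for GC content and length those counts were 3 and 1034, and the log2 fold changes of PRDX6 (0.12), TXN (0.0861), GCLM (0.00529) and KEAP1 (−0.0250) changed sign.

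Leaving out 1 library at a time gave 0 to 4 called genes in all, the most without variant 3, and 0 (without Control 1) to 9 (without variant 3) of the 42 genes at an unadjusted p under 0.05. Over all genes that count ran from 549 to 1618, and over the pathway genes from 3 to 18. The mitochondrial minus cytosolic median ran from −0.0644 to 0.231, the highest without variant 2, and the median of the 42 genes from −0.17 to −0.0401. PRDX3 and GLRX kept an unadjusted p under 0.05 in every alternative except without Control 1.

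The sign of small differences depended on single libraries. Over the libraries left out, log2 fold changes ran as follows: SOD2 −0.10 to 0.28, CAT −0.31 to 0.0129, GPX1 −0.0866 to 0.00252, GPX4 −0.20 to 0.12, PRDX6 −0.12 to 0.12, TXN −0.50 to 0.25, TXN2 −0.35 to 0.26, TXNRD2 −0.21 to 0.76, GCLC −0.0916 to 0.28, GCLM −0.41 to 0.0701, GSS −0.0450 to 0.33, HMOX1 −0.51 to 0.0353, NFE2L2 −0.19 to 0.0161, KEAP1 −0.0215 to 0.19, PGD −0.0520 to 0.0202, TKT −0.16 to 0.0265, GSTP1 −0.36 to 0.47, MGST1 −1.84 to 1.08 and FTL −0.0214 to 0.32. The cause was not tested. Of the 42 genes, 35 changed sign or moved by over 1.5 times without some library. The other 7 were PRDX3, TXNRD1, SRXN1, GLRX, GLRX3, NQO1 and HMOX2. Relative to the median of its chromosome, the sign changed in 9 genes: SOD2, PRDX6, GCLC, GSS, GLRX5, NFE2L2, KEAP1, PGD and GSTP1, each then within 0.05 of 0. The width of the confidence intervals, from 2 against 3 libraries, limits what could be resolved.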
